A study of Mus musculus with 6 samples.

Results

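Genes for making, taking up, storing and exporting cholesterol were followed in back-skin keratinocytes of K14ΔNLef1 transgenic mice and of wild type mice. The list holds 36 genes, chosen by name for their role with earlier results of these data known, so counts among them are a description. The 28 with probe sets annotated to exactly that gene were kept, of 11271 genes measured in all. They comprise 11 of 18 synthesis enzymes, 6 lipoprotein receptors and receptor partners, 4 of 5 regulators and carriers, 4 lysosomal genes and 3 export genes. The other 8, Hmgcs1, Mvd, Idi1, Fdps, Lss, Sc5d, Acat2 and Insig1, were not analysed here. K14ΔNLef1 mice carry Lef1, a DNA-binding factor of the Wnt pathway, without its N-terminal part, driven by the keratin 14 promoter of basal epidermal cells. Both genotypes were female, 9.5 weeks old and of C57BL6/CBA background, with 3 arrays for each genotype. The cells are labelled as unfractionated, although the extraction protocol mentions a sort. The replicates are called biological, and the labels do not tie them to single animals, so p-values measure only the spread between these samples.

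Cholesterol is built from acetyl-CoA through mevalonate, squalene and a run of sterol intermediates. When sterols are scarce the sensor Scap carries the factor Srebf2 to be activated, and Srebf2 switches on the synthesis enzymes and lipoprotein uptake, while sterol-laden cells turn on export through Abca1 and Abcg1. In the epidermis cholesterol is one of the barrier lipids that keratinocytes secrete as they cornify.

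Each gene value is the mean log2 intensity of the gene's probe sets on an array, and each change is K14ΔNLef1 minus wild type on that log2 scale. Genes were tested with limma across all genes, a change passing at a Benjamini-Hochberg adjusted p of 0.05 or less. Lef1 was 11.11, 11.13 and 11.24 on the K14ΔNLef1 arrays, against 5.81, 7.02 and 6.26 on the wild type arrays, higher on every array labelled K14ΔNLef1. The 13 measured keratinocyte markers averaged 10.00 to 10.67 on the K14ΔNLef1 arrays and 10.69 to 10.72 on the wild type arrays, with 11 lower in K14ΔNLef1. All genes averaged 7.12 to 7.41 on the K14ΔNLef1 arrays and 7.33 to 7.40 on the wild type arrays. Of all 11271 genes, 6442 were lower in K14ΔNLef1. K14ΔNLef1 replicate 1 stood apart. Its median intensity was 154.2, against 190.0 to 203.2 on the other arrays, and its correlation with each of them was 0.824 to 0.843, where the other 5 correlated at 0.904 to 0.935. Values without it are given beside the results it moved most.

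Promoter sequence upstream of Vldlr, the member with the largest change, and of Mvk, an enzyme of the mevalonate steps, is shown to set the receptor gene beside the sterol-regulated enzymes. Both windows are the 250 bases before an annotated RefSeq start in GRCm38.p6 (Vldlr at chr19:27216234-27216483 and Mvk at chr5:114444019-114444268, both on the plus strand), 5′ to 3′. Capitals mark CCAAT on either strand, the box of the factor NF-Y, a known partner of Srebf2.

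Vldlr: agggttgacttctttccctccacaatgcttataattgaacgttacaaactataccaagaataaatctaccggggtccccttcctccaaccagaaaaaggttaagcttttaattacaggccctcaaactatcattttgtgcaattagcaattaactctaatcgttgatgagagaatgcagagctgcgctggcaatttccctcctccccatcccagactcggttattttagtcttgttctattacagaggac

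Mvk: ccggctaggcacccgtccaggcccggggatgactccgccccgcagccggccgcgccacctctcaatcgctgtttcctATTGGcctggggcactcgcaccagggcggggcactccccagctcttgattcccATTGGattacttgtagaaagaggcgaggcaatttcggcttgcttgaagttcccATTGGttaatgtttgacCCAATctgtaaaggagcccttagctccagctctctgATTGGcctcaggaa

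The Mvk window held 5 CCAAT boxes, beginning 173, 120, 67, 50 and 14 bases before the start, and the Vldlr window held none. A window at a second annotated Vldlr start, further downstream, held 1, beginning 78 bases before that start. No other member window held as many as that of Mvk, and the enzymes Cyp51, Pmvk and Tm7sf2 each had a window with 1. Of the 28 members, 22 had a window in the RefSeq table. All 9 synthesis enzymes among them had CCAAT in a window, in 9 of their 12 windows, against 5 of 19 windows of the other members and 33.85% of all 32851 windows of that length. The sterol response letters TCACNCCAC stood in no member window and in 1.05% of all windows. CTTTGA, the core that Lef1 and Tcf factors bind, stood in a window of Lipa, Lrp10, Npc2 and Pmvk and in 13.8% of all windows. The boxes in the Mvk window did not overlap, and a match of letters is a description and not a site.

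Vldlr, the receptor of very low density lipoprotein that also binds reelin, was the only one of the 28 genes to pass. It was 7.91, 8.48 and 8.57 on the K14ΔNLef1 arrays, against 5.70, 6.17 and 5.83 on the wild type arrays. The genotypes lay well apart, with K14ΔNLef1 replicate 1 the lowest of the transgenic arrays. Vldlr rose by 2.42 (SE 0.23, 95% interval 1.88 to 2.96), or 5.35-fold, with a limma adjusted p of 0.00357 (8.32 ± 0.36 in K14ΔNLef1 and 5.90 ± 0.24 in wild type, SD, n = 3). Across all genes 0.328% rose and 0.843% fell by the same rule. Without K14ΔNLef1 replicate 1 the rise was 2.62, and leaving out any 1 array gave 2.29 to 2.62 with limma adjusted p between 0.00183 and 0.0302.

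**Figure D1:**
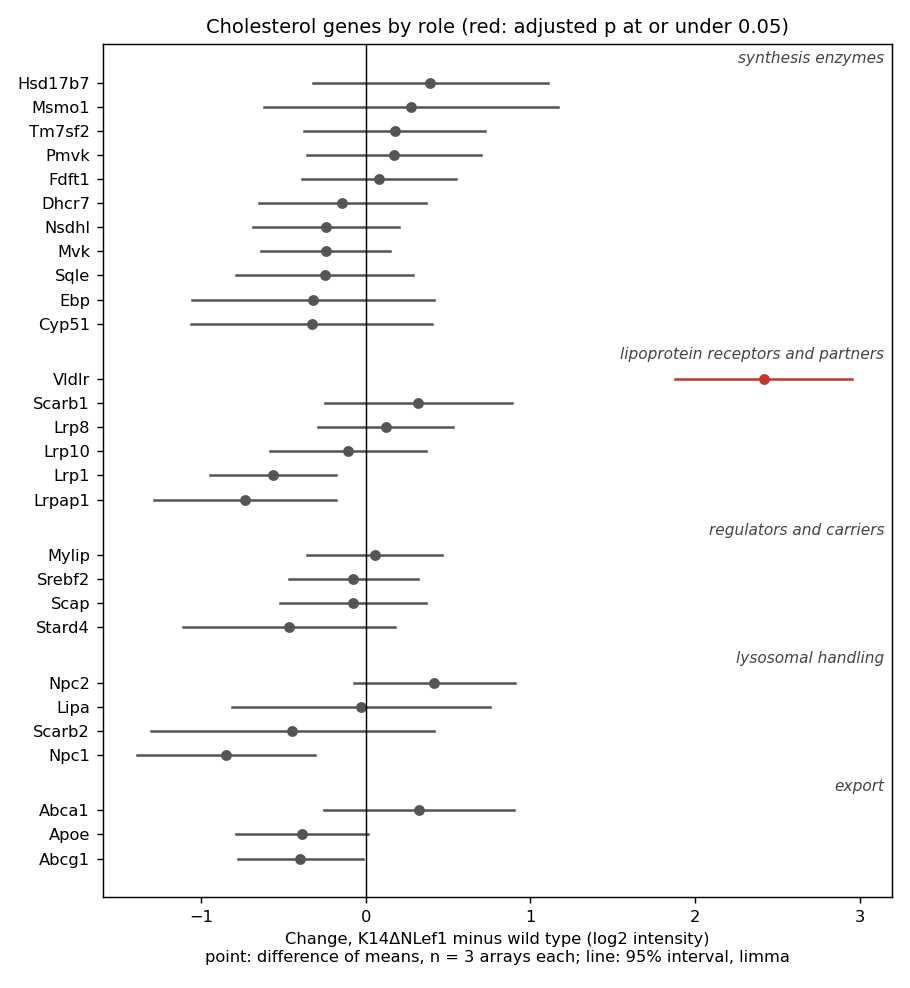
Change of each of the 28 measured cholesterol genes (x axis, K14ΔNLef1 minus wild type, log2 intensity), grouped by role on the y axis, with points for differences of means over 3 arrays each and lines for 95% limma intervals. Vldlr, in red, lies at 2.42, and the other 27 genes lie between -0.85 and 0.41.

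The rise was shared by nearly all of the 20 Vldlr probe sets, to unequal degrees. All 20 were higher in K14ΔNLef1, by 0.50 to 3.95 with a median of 2.65, and in 19 every K14ΔNLef1 array lay above every wild type array, against 5.11% of all 109751 probe sets. The 1 that overlapped, probe set 4738138, was bright in both genotypes, at 10.99, 9.70 and 9.77 on the K14ΔNLef1 arrays and 9.51, 9.85 and 9.61 on the wild type arrays. The largest difference was in probe set 5060305, at 8.04, 9.18 and 9.47 on the K14ΔNLef1 arrays and 4.0, 5.44 and 5.41 on the wild type arrays. In all 14 probe sets differed by at least 2 and 5 by less than 1.5. Here and below, the probe sets of a gene read the same samples and are not independent observations. Tested one by one, 3 of the 20 passed over all probe sets (limma), of the 402 probe sets of cholesterol genes, and 0.19% of all probe sets did. None of the 402 passed without K14ΔNLef1 replicate 2 or 3 or without any wild type replicate, and 5 did without K14ΔNLef1 replicate 1. The diffSplice F test of unequal change passed for Vldlr (adjusted p of 0.00153) and for none of the other 26 cholesterol genes with at least 3 probe sets, and 0.754% of all genes tested passed. In simulated data whose probe sets differed in noise this test passed more unchanged genes than its threshold allows. The Vldlr value also missed the threshold without wild type replicate 1 (adjusted p of 0.0938), K14ΔNLef1 replicate 2 (0.234) or K14ΔNLef1 replicate 3 (0.145). Where the probe sets lie along the gene was not analysed here.

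**Figure D2:**
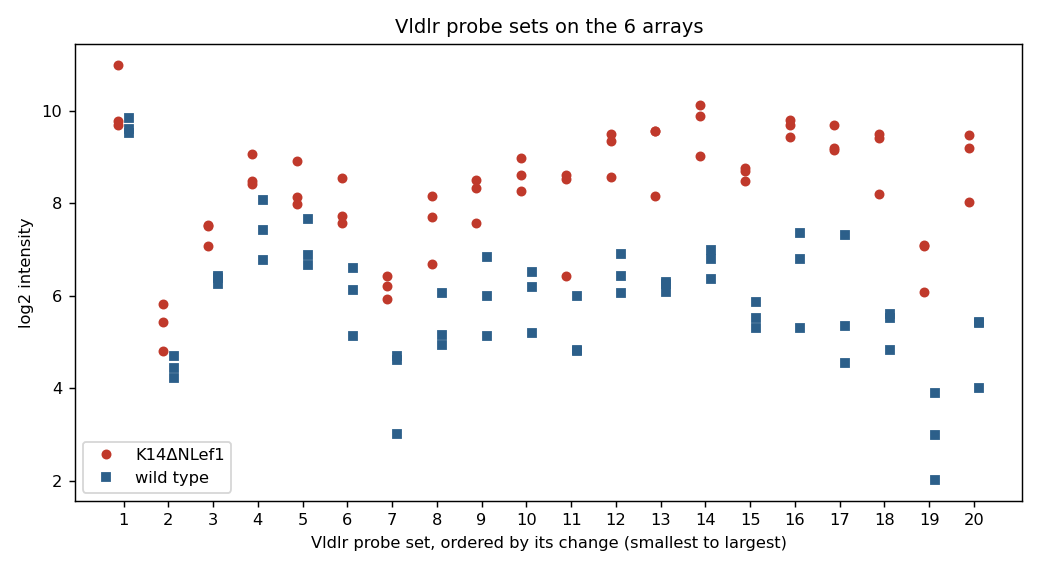
Log2 intensity (y axis) of each of the 20 Vldlr probe sets on the 3 K14ΔNLef1 arrays (red circles) and the 3 wild type arrays (blue squares), ordered along the x axis by the size of the change. In 19 of 20 probe sets all red points lie above all blue points, and the changes run from 0.50 to 3.95.

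None of the other receptors or partners passed. Lrp1, a large endocytic receptor that takes up Apoe-bearing particles, was 7.45, 7.56 and 7.67 on the K14ΔNLef1 arrays, against 8.22, 8.06 and 8.10 on the wild type arrays. Lrpap1, the chaperone that keeps receptors of this family free of ligand on their way to the surface, was 7.40, 7.66 and 8.24 on the K14ΔNLef1 arrays, against 8.38, 8.65 and 8.47 on the wild type arrays. In both genes every K14ΔNLef1 array lay below every wild type array, but neither passed. The Lrp1 difference was -0.56 (95% interval -0.94 to -0.18, limma adjusted p of 0.213) and that of Lrpap1 -0.73 (-1.29 to -0.18, limma adjusted p of 0.273), and without K14ΔNLef1 replicate 1 they were -0.51 and -0.55. Of the 91 Lrp1 probe sets 80 were lower in K14ΔNLef1, 31 of them without overlap, and of the 11 Lrpap1 probe sets 9 were lower, 5 without overlap. Among all probe sets 9.46% were lower without overlap, and counts of probe sets within a gene add no replicates. Lrp8, the closest relative of Vldlr and likewise a reelin receptor, differed by 0.12 (-0.29 to 0.53). Lrp10, a small member of the family, differed by -0.11 (-0.59 to 0.36) and the high density lipoprotein receptor Scarb1 by 0.32 (-0.25 to 0.88). In these last 3 genes the arrays of the genotypes overlapped, and without K14ΔNLef1 replicate 1 the differences were 0.04 for Lrp8, -0.08 for Lrp10 and 0.12 for Scarb1.

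**Figure D3:**
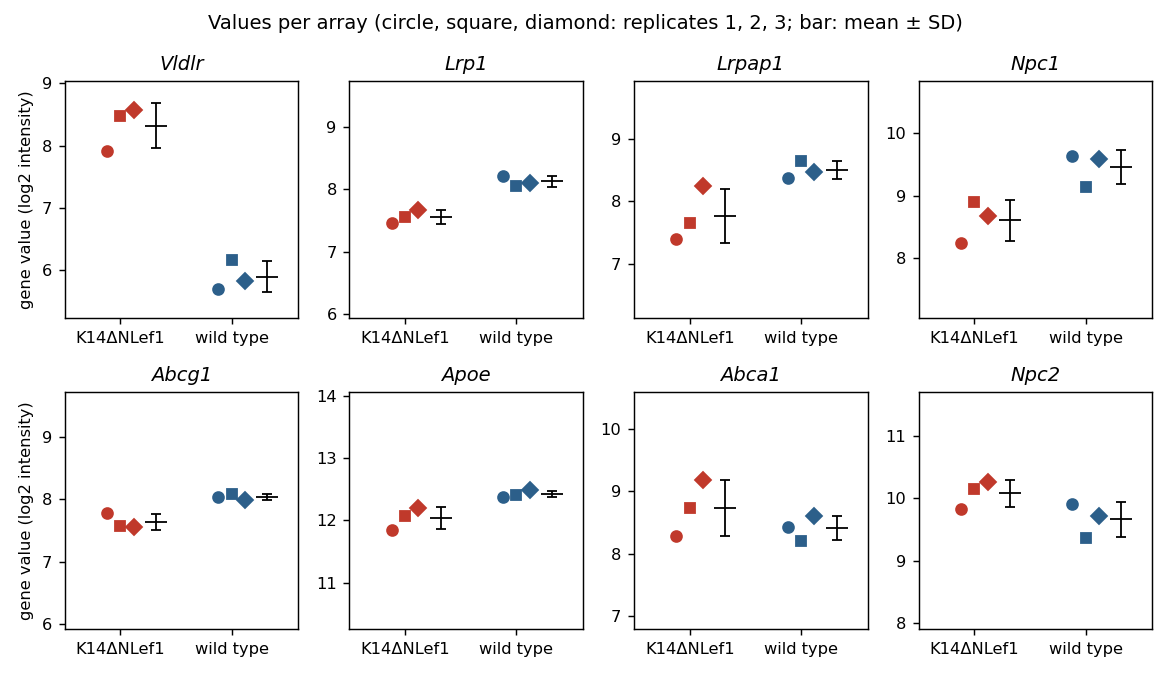
Gene values (y axes, log2 intensity, each panel spanning the same 3.8 units) of 8 receptor, lysosomal and export genes on each array, with K14ΔNLef1 in red left of wild type in blue, symbols for replicates 1 to 3 and bars for mean ± SD (n = 3). Vldlr is higher on all K14ΔNLef1 arrays, Lrp1, Lrpap1, Npc1, Abcg1 and Apoe are lower on all of them, and Abca1 and Npc2 overlap.

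None of the 11 synthesis enzymes passed, in either direction (limma), and none had an unadjusted p under 0.05. Their changes ran from -0.33 to 0.39 with a median of -0.14, beside a median of -0.05 over all genes, and 5 were higher and 6 lower. Their median was -0.01 without K14ΔNLef1 replicate 1 and likewise -0.01 with quantile normalization. In the mevalonate steps the kinases Mvk and Pmvk differed by -0.24 (95% interval -0.64 to 0.15) and 0.17 (-0.36 to 0.70). Without K14ΔNLef1 replicate 1 Pmvk differed by 0.31. Fdft1, which makes squalene, differed by 0.08 (-0.39 to 0.54) and by 0.16 without that array, and Sqle, the squalene epoxidase that commits the chain to sterols, by -0.25 (-0.79 to 0.29). The Sqle difference came from 1 array. Sqle was 6.90, 7.50 and 7.73 on K14ΔNLef1 replicates 1, 2 and 3, against 7.67, 7.59 and 7.62 on the wild type arrays, and differed by -0.01 without replicate 1.

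Among the later, sterol-modifying enzymes, Cyp51, Msmo1 and Hsd17b7, which act while methyl groups are stripped from lanosterol, spread widely among the K14ΔNLef1 arrays. Cyp51, the lanosterol demethylase, was 6.51, 7.55 and 7.69 on the K14ΔNLef1 arrays, against 7.41, 7.85 and 7.48 on the wild type arrays, and only replicate 1 lay below the wild type range. The Cyp51 difference was -0.33 (95% interval -1.06 to 0.40) with all arrays and 0.04 without replicate 1. Msmo1, the methylsterol oxidase, was 7.11, 8.11 and 8.65 on the K14ΔNLef1 arrays, against 7.88, 7.21 and 7.95 on the wild type arrays. Hsd17b7, the keto-sterol reductase of these steps, was 7.66, 8.55 and 8.55 on the K14ΔNLef1 arrays, against 8.30, 7.46 and 7.82 on the wild type arrays. In both Msmo1 and Hsd17b7, replicates 2 and 3 lay above every wild type array and replicate 1 did not. The differences of Msmo1 and Hsd17b7, 0.27 and 0.39 with all arrays, were 0.70 and 0.69 without replicate 1, with limma adjusted p of 0.310 and 0.258 there. Nsdhl, the dehydrogenase of the same steps, was the only enzyme with no overlap, at 8.68, 8.74 and 8.72 on the K14ΔNLef1 arrays, against 8.76, 9.27 and 8.84 on the wild type arrays, a difference of -0.24 (-0.69 to 0.20). The reductase Tm7sf2 differed by 0.17 (-0.38 to 0.72), the isomerase Ebp by -0.32 (-1.06 to 0.42) and Dhcr7, the last reductase, by -0.14 (-0.65 to 0.37). Without replicate 1 these differences were -0.03, -0.11 and -0.25. The intervals leave room for changes up to their bounds, which 3 arrays for each genotype could not resolve.

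The genes that sense and carry sterols also gave no call. Srebf2, read by 1 probe set, differed by -0.08 (95% interval -0.47 to 0.32) and Scap by -0.08 (-0.52 to 0.37). Mylip, also called Idol, a ubiquitin ligase that marks Vldlr, Lrp8 and the low density lipoprotein receptor for breakdown, differed by 0.05 (-0.36 to 0.46). Stard4, a cytosolic sterol carrier, was 6.89, 7.35 and 7.83 on the K14ΔNLef1 arrays, against 7.93, 7.45 and 8.10 on the wild type arrays, with a difference of -0.47 (-1.11 to 0.18) and -0.23 without K14ΔNLef1 replicate 1. None of the 4 had an unadjusted limma p under 0.05.

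Of the lysosomal genes, the 2 that hand cholesterol out of the lysosome lay on opposite sides. Npc1, the membrane protein of that pair, was 8.23, 8.89 and 8.67 on the K14ΔNLef1 arrays, against 9.63, 9.14 and 9.58 on the wild type arrays, with no overlap. The difference was -0.85 (SE 0.23, 95% interval -1.39 to -0.31) and did not pass (limma adjusted p of 0.184, and -0.67 with 0.162 without K14ΔNLef1 replicate 1). Of its 26 probe sets 25 were lower in K14ΔNLef1, 14 without overlap. Npc2, the soluble partner, was 9.83, 10.15 and 10.26 on the K14ΔNLef1 arrays, against 9.91, 9.36 and 9.72 on the wild type arrays, a difference of 0.41 (-0.07 to 0.90). Without K14ΔNLef1 replicate 1 the Npc2 difference was 0.54 (limma adjusted p of 0.254). All 6 Npc2 probe sets were higher in K14ΔNLef1, 3 without overlap, while replicate 1 lay within the wild type range for the gene. Among all probe sets 5.11% were higher and 9.46% lower without overlap. Lipa, the acid lipase that frees cholesterol from its esters, was 5.86, 7.15 and 7.0 on the K14ΔNLef1 arrays, against 6.57, 7.0 and 6.53 on the wild type arrays. Scarb2, a lysosomal membrane protein of the Scarb1 family, was 7.95, 9.11 and 9.57 on the K14ΔNLef1 arrays, against 9.30, 9.25 and 9.41 on the wild type arrays. The Lipa and Scarb2 differences turned from -0.03 and -0.45 with all arrays to 0.38 and 0.02 without replicate 1.

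In the export genes both Abcg1 and Apoe were lower on every K14ΔNLef1 array and neither passed. Abcg1, which loads cholesterol onto high density lipoprotein, was 7.78, 7.57 and 7.56 on the K14ΔNLef1 arrays, against 8.03, 8.08 and 7.99 on the wild type arrays. All 13 of its probe sets were lower in K14ΔNLef1, 4 without overlap, and the difference was -0.40 (95% interval -0.78 to -0.02, limma adjusted p of 0.397). Apoe, an apolipoprotein of cholesterol transport and a ligand of Vldlr and Lrp1, was 11.84, 12.07 and 12.20 on the K14ΔNLef1 arrays, against 12.38, 12.42 and 12.48 on the wild type arrays. All 8 Apoe probe sets were lower in K14ΔNLef1, 6 without overlap, and the difference was -0.39 (-0.79 to 0.01, limma adjusted p of 0.445). Of all probe sets 9.46% were lower without overlap. Abca1, which starts the loading of new high density particles, was 8.29, 8.72 and 9.18 on the K14ΔNLef1 arrays, against 8.42, 8.20 and 8.60 on the wild type arrays. Its difference of 0.32 (-0.26 to 0.90) became 0.55 without K14ΔNLef1 replicate 1. In a mixed sample such as this, fewer cells of a type and less RNA per cell cannot be told apart.

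Of the 28 genes, 11 were higher and 17 lower in K14ΔNLef1, where 4829 and 6442 of all 11271 genes were. The median change of the 28 was -0.10. At an unadjusted limma p under 0.05, 1 was higher and 4 lower, where 4.21% and 7.56% of all genes were. Every K14ΔNLef1 array lay above every wild type array in 1 gene, Vldlr, and below in 6, Lrp1, Lrpap1, Nsdhl, Npc1, Abcg1 and Apoe, where 6.91% and 11.8% of all genes did so. Without K14ΔNLef1 replicate 1 the split was 14 higher and 14 lower. The split depended on scaling as well: arrays shifted to the same median gave 14 higher and 14 lower, and quantile normalization 15 and 13, as the median over all genes moved from -0.05 to 0.05 and 0.06. With both scalings the 6 genes above stayed lower in K14ΔNLef1, and Vldlr stayed higher.

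By role, the synthesis enzymes and the export genes overlapped between genotypes, and the position of the receptors rested on Vldlr. The mean change was -0.04 for the 11 synthesis enzymes, 0.24 for the 6 receptors and partners, -0.19 for the 5 of these without Vldlr, and -0.15 for the 3 export genes. Relative to the wild type mean, synthesis enzymes averaged -0.31, -0.02 and 0.20 on K14ΔNLef1 replicates 1, 2 and 3, and between -0.06 and 0.04 on the wild type arrays. Over those arrays all genes averaged -0.25, -0.04 and 0.05 in K14ΔNLef1. Set against the receptors, the synthesis mean changed by -0.28 with Vldlr counted and by 0.15 without it, so the sign of that comparison rested on 1 gene. Without K14ΔNLef1 replicate 1 these were -0.18 and 0.29, the synthesis mean was 0.09 and the export mean -0.07. Within each array the synthesis mean less the export mean was -1.76, -1.62 and -1.59 in K14ΔNLef1, against -1.74, -1.78 and -1.79 in wild type, and the change in it was 0.11. These role means have no test.

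**Figure D4:**
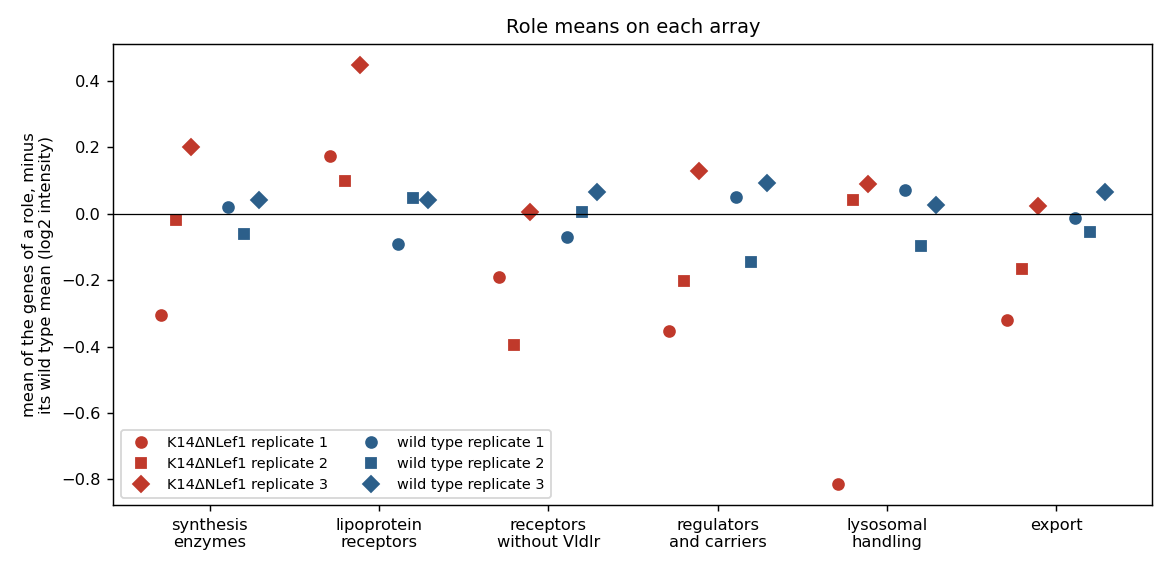
Mean of the genes of each role on each array, less the role's wild type mean (y axis, log2 intensity), for K14ΔNLef1 (red) and wild type (blue), with symbols for replicates 1 to 3. The synthesis enzymes spread from -0.31 to 0.20 over the K14ΔNLef1 arrays around the wild type arrays, and the receptors lie higher with Vldlr than without it.

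Among 22 other measured genes of cholesterol handling none passed (limma). At an unadjusted limma p under 0.05, 1 was higher and 3 lower, where 4.21% and 7.56% of all genes were. The 3 with the smallest p were Abca12, the lipid transporter of the lamellar granules that supply the skin barrier, Cav1, the coat protein of caveolae, and Soat1, which esterifies cholesterol for storage. Abca12 was 6.77, 7.98 and 7.96 on the K14ΔNLef1 arrays, against 9.59, 9.38 and 8.99 on the wild type arrays (difference -1.75, limma adjusted p of 0.0621). Cav1 was 10.31, 10.39 and 10.79 on the K14ΔNLef1 arrays, against 11.25, 11.30 and 11.42 on the wild type arrays (-0.82, limma adjusted p of 0.112). Soat1 was 6.60, 7.62 and 7.71 on the K14ΔNLef1 arrays, against 6.17, 5.22 and 6.15 on the wild type arrays (1.46, limma adjusted p of 0.143). None of the 3, chosen for their small p, overlapped between genotypes. Of the 22 genes, 3 were higher and 4 lower without overlap, where 6.91% and 11.8% of all genes were. Without K14ΔNLef1 replicate 1 Abca12 and Soat1 passed (limma adjusted p of 0.0258 and 0.0373). At the same threshold Abca12 passed in 9 of the 18 alternative fits, Soat1 in 5, both rescalings of the arrays among them for each gene, and Cav1 in 1, with array weights.

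Marker lists of the cell types that a mixed sample could hold differed between arrays. Keratinocyte markers, given above, were lowest on K14ΔNLef1 replicate 1. The 11 sebocyte markers, of cells rich in lipid synthesis, averaged 7.36 to 7.90 on the K14ΔNLef1 arrays. On the wild type arrays they averaged 7.05 to 7.20, below every K14ΔNLef1 array. Of the 11, 8 were higher in K14ΔNLef1 and 3 lower, and Soat1 is one of this list as well. Without overlap 5 were higher and 0 lower, where 6.91% and 11.8% of all genes were. At an unadjusted limma p under 0.05, 4 were higher and 0 lower, where 4.21% and 7.56% of all genes were. For 14 macrophage and monocyte markers, cells that express much Apoe and Abca1, levels were 6.54 to 6.87 on the K14ΔNLef1 arrays and 6.35 to 6.55 on the wild type arrays. Of the 14, 11 were higher and 3 lower in K14ΔNLef1, while 4829 of all 11271 genes were higher and 6442 lower. Langerhans cell markers were 6.94 to 8.08 on the K14ΔNLef1 arrays and 6.59 to 7.27 on the wild type arrays, and T cell markers 7.48 to 8.52 on the K14ΔNLef1 arrays and 7.32 to 7.76 on the wild type arrays. Fibroblast markers were 6.29 to 6.35 on the K14ΔNLef1 arrays and 6.22 to 6.34 on the wild type arrays. In the same order, endothelial and mural markers were 6.13 to 6.59 and 6.08 to 6.27, and melanocyte markers 6.57 to 6.87 and 6.41 to 6.61. Adipocyte markers, at 6.20 to 6.57 and 6.01 to 6.16, were higher on every K14ΔNLef1 array, as the sebocyte markers were. Of the 8 adipocyte markers, 5 were higher and 3 lower in K14ΔNLef1. Their mean change of 0.26 leaned on 1 marker that differed by 1.37, and their median change was 0.13. No member of these lists passed (limma), and the part of these cells in the values of the cholesterol genes was not tested. Some markers lay under the 5th percentile of all gene values, which was 4.97 to 5.13 by array.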

How the data were processed

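The 28 genes, their roles and the other lists were chosen with earlier results of these data known. The deposited table gives the authors' intensity for each of 114330 probe sets on 6 arrays. Per the submitters' processing notes the tools named are Affymetrix Power Tools and RMA, and the build is mm9, with versions and filters not given in the sources used here. Per the labels' protocols, a NuGEN Pico amplification preceded labelling.

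Intensities were taken to log2. Probe sets with 1 symbol in the platform annotation, 109751 of them, were kept, older symbols were updated through the GRCm38.p6 gene table, and the probe sets of a gene were averaged, with no filter on low values. Msmo1 was found under its older symbol. The number of arrays limits the precision. The tests of genes and probe sets used limma 3.58.1 under R 4.3.3 (two-sided moderated statistics from lmFit and eBayes, Benjamini-Hochberg over the whole table), and unequal change with diffSplice. The scripts were tested on simulated data. Alternatives changed the gene summary, filters, scaling, fit, blocks, threshold and arrays. Every measured cholesterol gene is named. Of the other lists, named genes are those that passed or, with fewer than 3, the 3 smallest p. RefSeq windows were searched on both strands. Tables and figures were made with pandas 2.3.3 and matplotlib 3.10.9.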

Additional observations from a re-analysis of the deposited data

How the results depend on the processing

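Vldlr rose and passed under all 18 alternatives, by 2.29 to 2.71 (limma adjusted p of 2.8e-05 to 0.0302). Over the 28 genes, 456 of 500 values under alternatives kept their direction and their side of the threshold, 40 changed sign without passing in either fit, and none reversed a call. The other 4 were Lrp1, Lrpap1, Npc1 and Abcg1, which fell with array weights, so that 5 cholesterol genes passed there, and 1294 genes in all. Of all genes measured 132 passed, and 235 after shifting every array to a common median (102 higher and 133 lower, beside 37 and 95), 201 after quantile normalization (89 higher and 112 lower), 238 without K14ΔNLef1 replicate 1 after quantile normalization, and 236 at an adjusted p of 0.1. Leaving out single arrays gave 27 to 242, the highest without K14ΔNLef1 replicate 1. Of the cholesterol probe sets 3 passed, and 9 with shifted arrays, 8 with quantile normalization and 0 to 5 with 1 array left out. Unequal change was found in 0 to 1 cholesterol genes with 1 array left out. The causes were not tested. The means of the synthesis, receptor and export genes and the 2 differences between them moved by less than 1 SD between arrays of a genotype. That SD included K14ΔNLef1 replicate 1, and for the synthesis mean it was 0.25 in K14ΔNLef1 and 0.05 in wild type. It is therefore a loose measure of stability, and the synthesis mean ran from -0.16 to 0.09 and so changed sign. The mean of the receptors without Vldlr, -0.19, was -0.20 without K14ΔNLef1 replicate 1 and -0.08 with quantile normalization, the only settings in which it was recomputed.

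With the replicate block 74 genes passed, Vldlr among them (adjusted p of 0.00797), and no call among the cholesterol genes changed. The labels do not pair the samples, and deviations of same-numbered arrays correlated at -0.16, -0.17 and 0.04, so that not every array correlated best with its own number. Adjacent numbers in the descriptions, tried as another block, gave 0.20, -0.01 and -0.07, and Vldlr passed (0.00783).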

Other observations

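Fatty acid and desaturase genes, which respond to Srebf1, the relative of Srebf2 for fatty acid synthesis, gave 1 call among 14 measured. Over all genes 0.328% rose and 0.843% fell by the same rule. Acsl1, which activates long-chain fatty acids, was 8.23, 8.75 and 8.82 on the K14ΔNLef1 arrays, against 10.02, 9.71 and 9.96 on the wild type arrays. It fell by 1.30 (limma adjusted p of 0.0323). With 1 array left out the change was -1.41 to -1.11, but it passed in 1 of 6 such fits, that without K14ΔNLef1 replicate 1 (adjusted p of 0.0220 to 0.173 over the 6). It also missed the threshold with the replicate block (0.0976) and the adjacent number block (0.0735). The next smallest p were those of Gpam, which starts triglyceride synthesis, and the desaturase Scd2. Gpam was 7.07, 7.17 and 7.30 on the K14ΔNLef1 arrays, against 8.14, 8.30 and 7.84 on the wild type arrays, a difference of -0.91 (limma adjusted p of 0.0725). Scd2 was 7.49, 8.02 and 8.07 on the K14ΔNLef1 arrays, against 7.46, 6.71 and 7.08 on the wild type arrays, a difference of 0.77 (limma adjusted p of 0.272). Over the 14 genes the median change was -0.05, the same to 2 decimals as over all genes.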
